A study of Mus musculus with 12 samples.

Results

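The tumours described here are the 6 that grew in wild-type mice, out of 12 tumours in the series. Mouse prostate carcinoma cells of the TRAMP-C2Re3 line were placed into the prostates of C57BL6 mice at 50000 cells per mouse, and each tumour was removed 60 days later. The other 6 tumours grew in hosts lacking p62 and are not analysed here. The 6 hosts described here were all wild type and had the same treatment. Each tumour is from a different mouse, and the tumours are called WT1 to WT6 after the number in their titles. The members were chosen by that host label alone, and the features are the 19937 genes with a probe set of exactly 1 gene symbol, each represented by its brightest probe set. RNA of a whole tumour was read on 1 array, so injected cells and host cells of the same mouse strain are mixed in every value, and fewer cells of a type cannot be told apart from less RNA per cell. Host age and sex, RNA quality and scan dates are not given in the labels.

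Lines of the TRAMP-C series come from prostate tumours of mice with an oncogene under a prostate-specific promoter, and how the Re3 derivative was made is not given in the sources used here. An orthotopic tumour is built by cancer cells together with fibroblasts and the matrix they lay down, vessels, and immune cells, among which macrophages are often plentiful. The surrounding prostate adds secretory gland, smooth muscle and fat, so genes of each of these compartments were listed and read separately.

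Values are log2 intensities. Probe sets differ in how brightly they answer the same amount of RNA, so a percentile among the 19937 genes describes brightness and does not order genes by RNA amount. The middle of the distribution lay at 6.44, the quartiles at 5.21 and 7.84, and the 90th percentile at 9.08. To see what such arrays give for RNA that a prostate tumour should hardly contain, 33 genes of other organs were read, from albumin of liver to lens crystallins. Their median percentile was 28.7 and their means ran from 3.01 for Neurod6, a factor of cortical neurons, to 7.26 for Cela1, an elastase of the pancreas. Of all genes, 34.6% lay above Cela1, the share to set beside each later count of list members above the organ genes. A level below that of Cela1 is therefore within what these organ genes gave, and neither presence nor absence was called.

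The 6 arrays were alike as whole profiles, with pairwise correlations of 0.979 to 0.992 across genes. They were not equal in spread. The interquartile range was 2.62 in WT1, 2.51 in WT2, 2.87 in WT3, 2.73 in WT4, 2.39 in WT5 and 2.77 in WT6. After the mean of each gene and then of each array was taken out, 46.1% of the remaining variance lay on the leading principal component. That component put WT2 at -24.8 and WT5 at -27.4, opposite WT3 at 25.6. The arrays with the narrowest range were thus WT2 and WT5, and the widest was that of WT3. A narrow range places bright genes lower and dim genes higher, so a tumour's rank in a list is given below only with its rank after all arrays were set to a common interquartile range. In 18 of 36 lists the same tumour was highest under the deposited values, a common median, a common interquartile range and quantile normalization, and in 21 the same tumour was lowest.

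**Figure D1:**
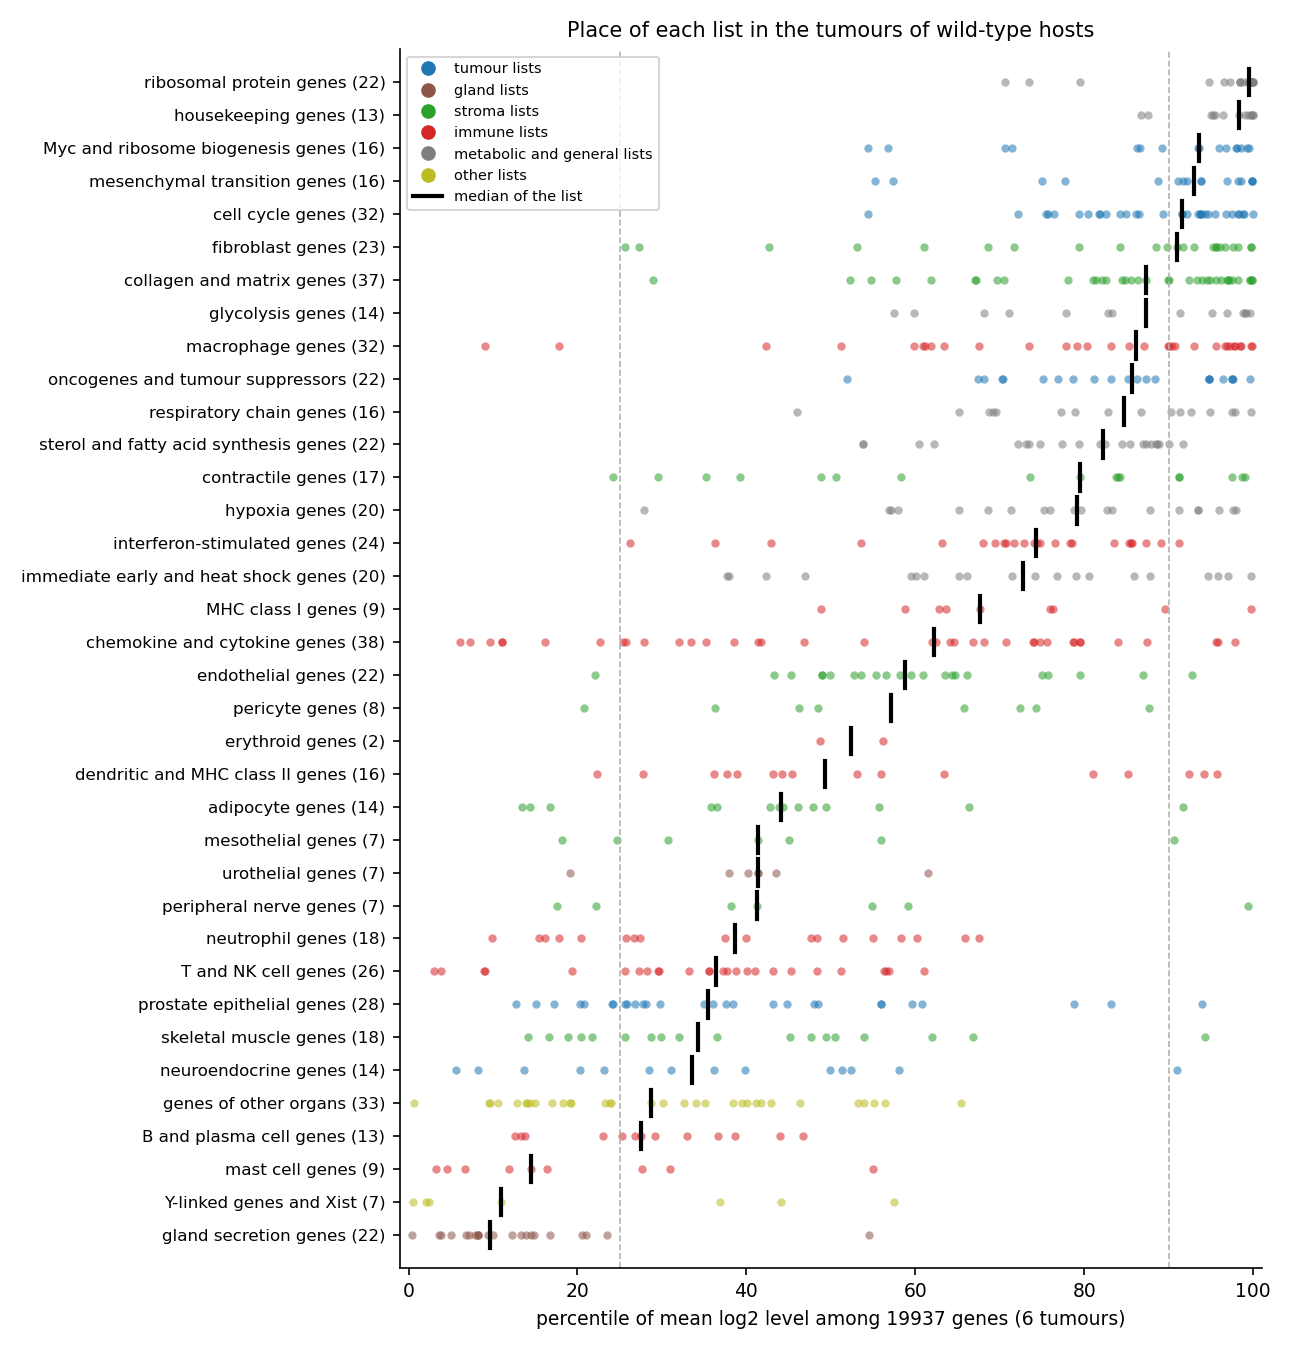
Place of the members of 36 gene lists among 19937 genes, as the percentile of the mean log2 level over 6 tumours. Each point is a gene, the black bar is the median of the list, the number of measured members is in brackets, and the dashed lines mark the 25th and 90th percentiles; the lists run from gland secretion genes at 9.67 to ribosomal protein genes at 99.5.

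The brightest probe sets of these tumours included genes of translation, the cytoskeleton and the matrix. The brightest gene was Eef1a1, a translation elongation factor, at 12.83 ± 0.08 (SD, n = 6). Kcnma1, the pore-forming subunit of a large-conductance potassium channel, followed at 12.72 ± 0.08 (SD, n = 6) and lay between 12.63 and 12.86 in the 6 tumours. The 20 brightest genes also held Txn1 (thioredoxin), the cytoskeletal genes Actb and Pfn1, the ferritin chain Fth1 and 5 ribosomal protein genes. Among them were also Pcna, the sliding clamp of DNA replication, at 12.53 ± 0.21, the fibronectin gene Fn1 at 12.37 ± 0.11, Vim at 12.28 ± 0.07 and Sparc at 12.27 ± 0.06 (SD, n = 6 each). Vim encodes the intermediate filament of mesenchymal cells, and its 6 values spanned only 12.21 to 12.38.

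Proliferation genes were bright in every tumour. Of 32 measured cell cycle genes, 17 lay in the brightest 10% of all genes (10% of genes by definition), and 31 lay above the highest gene of other organs, where 34.6% of all genes lie. The median percentile of the list was 91.6, and 89.4 to 92.5 in single tumours. Mki67, the proliferation antigen, stood at 9.55 ± 0.11 and Top2a, the topoisomerase of replicating cells, at 10.62 ± 0.15 (SD, n = 6 each). Cdk1, the kinase that drives mitosis, had a wider spread, from 7.56 in WT5 to 8.53 in WT3. As a mean over the list, WT3 was highest at 9.44 and WT5 lowest at 8.92. WT3 and WT5 stayed the extremes with a common median and with quantile normalization, at 9.33 and 9.05 under the latter. With a common interquartile range alone the extremes were WT2 and WT4, so that the order depends on that choice.

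Growth genes downstream of Myc were placed at a median percentile of 93.6, with 9 of 16 in the brightest 10%. Myc itself, the transcription factor of cell growth, was at 10.46 in WT1, 10.78 in WT2, 10.11 in WT3, 10.64 in WT4, 10.68 in WT5 and 10.62 in WT6. Its mean was 10.55 ± 0.24 (SD, n = 6), with WT3 the lowest. The nucleolar proteins Npm1 and Ncl were steadier, at 11.36 ± 0.12 and 11.17 ± 0.07 (SD, n = 6 each). Of 22 oncogenes and tumour suppressors, 8 were in the brightest 10%, led by the apoptosis inhibitor Birc2 at 11.58 ± 0.16 and Met, the receptor of hepatocyte growth factor, at 10.39 ± 0.72 (SD, n = 6 each). Sqstm1, which encodes p62, stood at 8.89 ± 0.23 (SD, n = 6).

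Epithelial genes were mostly dim, although the injected line is a carcinoma. Of 28 measured prostate epithelial genes only 1 lay in the brightest 10%, 7 lay in the dimmest 25% (25% of genes by definition), and 3 lay above the highest gene of other organs. These 3 were Steap2, a metalloreductase, at 9.59 ± 0.27, the androgen-responsive chaperone Fkbp5 at 8.44 ± 0.26 and Krt8, a keratin of luminal cells, at 8.10 ± 0.20 (SD, n = 6 each). Krt18, the partner keratin of Krt8, was at 5.84 ± 0.15 and Cdh1, the cadherin of epithelial junctions, at 5.72 ± 0.19 (SD, n = 6 each). Epcam, the epithelial adhesion molecule, was at 4.59 ± 0.25 (SD, n = 6), the 15.1 percentile. Krt18, Cdh1 and Epcam, which define epithelium, were thus within the range of the organ genes in level. Only Krt19, a keratin of simple epithelia, passed an SD of 0.5 in this list, with 8.13 in WT2 against 5.87 to 6.89 in the others.

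Mesenchymal genes had the opposite placing. Their median percentile was 93.0, and 11 of 16 lay in the brightest 10%. Zeb1 and Snai2, repressors of epithelial genes, stood at 10.74 ± 0.16 and 9.27 ± 0.21, and Cdh2, the cadherin of mesenchymal and neural cells, at 9.19 ± 0.24 (SD, n = 6 each). Injected cells and host fibroblasts both may carry these RNAs, and the arrays do not separate them. Neuroendocrine genes had a median percentile of 33.6, with only Ncam1, a neural adhesion molecule, above the organ genes at 9.18 ± 0.15 (SD, n = 6). The defining neuroendocrine markers Chga and Syp, both proteins of secretory vesicles, were at 6.51 ± 0.14 and 5.94 ± 0.17 (SD, n = 6 each).

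Genes of fibroblasts and matrix made up the brightest stromal compartment. Of 23 fibroblast genes, 12 were in the brightest 10%, with Dcn (decorin) at 11.87 ± 0.34 and Postn (periostin) at 11.69 ± 0.22 (SD, n = 6 each). Pdgfra, a growth factor receptor of fibroblasts, was at 9.19 ± 0.44 (SD, n = 6). Fap, a protease of activated fibroblasts, was the most variable of them at 7.64 ± 0.52 (SD, n = 6), with its highest value of 8.42 in WT1 and its lowest of 6.79 in WT2. Of 37 collagen and matrix genes, 16 were in the brightest 10%, and the proteoglycans Bgn and Vcan reached 11.60 ± 0.09 and 11.59 ± 0.14 (SD, n = 6 each). The fibrillar collagen genes Col1a1 and Col3a1 were both at 9.08, with SDs of 0.06 and 0.13. As a mean, the matrix list differed by 0.14 between its extreme tumours, and by 0.51 with a common interquartile range.

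Contractile genes were spread widely, with 10 of 17 above the highest organ gene, where 34.6% of all genes lie. Tpm1 and Cald1, which are shared by many motile cells, were at 11.04 ± 0.19 and 10.82 ± 0.14, and smooth muscle actin Acta2 was at 10.34 ± 0.34 (SD, n = 6 each). Genes of mature smooth muscle lay on both sides of the organ genes. The myosin light chain Myl9 and the smooth muscle actin Actg2 were above, at 9.21 ± 0.42 and 8.48 ± 0.45, and the myosin Myh11 at 6.38 ± 0.26, desmin (Des) at 5.44 ± 0.21 and calponin (Cnn1) at 5.16 ± 0.06 were below (SD, n = 6 each). Endothelial genes had a median percentile of 58.8, with Cdh5, the cadherin of vessel walls, highest at 9.39 ± 0.31, and Pecam1, an adhesion molecule of the same cells, at 8.16 ± 0.44 (SD, n = 6 each). The endothelial list was lowest in WT2 under every scaling, at a mean of 6.80 where the highest, WT3, had 7.18 as deposited, and 17 of its 22 members were lowest there, against 16.3% of all genes.

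Rgs5, a regulator of G-protein signalling that marks pericytes, was the most variable vessel gene. Its level was 7.11 in WT1, 6.30 in WT2, 7.82 in WT3, 9.23 in WT4, 7.77 in WT5 and 7.82 in WT6. WT4 was high and WT2 low, while WT3, WT5 and WT6 lay close together.

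Macrophage genes were the brightest immune compartment. Of 32 measured, 14 lay in the brightest 10% and 23 above the highest gene of other organs, with a median percentile of 86.2. Ctss, a lysosomal protease, reached 11.94 ± 0.19 and Lyz2, the lysozyme of myeloid cells, 11.77 ± 0.21 (SD, n = 6 each). The mannose receptor Mrc1, often used as a marker of tissue-repair macrophages, was at 10.73 ± 0.27 and Cd68, a lysosomal glycoprotein, at 10.47 ± 0.10. The defining surface markers Adgre1 (F4/80) and Csf1r (the receptor of macrophage colony-stimulating factor) were at 9.87 ± 0.48 and 9.43 ± 0.46, each lowest in WT2 at 9.10 and 8.62 (SD, n = 6 each).

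Other immune lists were dimmer. T and NK cell genes had a median percentile of 36.4, and 0 of 26 exceeded the highest gene of other organs. The T cell markers Cd8a and Cd3e were at 6.80 ± 0.45 and 6.78 ± 0.25, while Ncr1, a receptor of NK cells, was at 3.62 ± 0.15 (SD, n = 6 each). B and plasma cell genes lay at a median percentile of 27.6, with the B cell receptor gene Cd79a at 4.42 ± 0.20. Among neutrophil genes, at 38.7, the calprotectin subunits S100a8 and S100a9 were at 5.33 ± 0.16 and 6.36 ± 0.20, and Ly6g, the granulocyte antigen, at 4.22 ± 0.16 (SD, n = 6 each). Mast cell genes were placed lowest of the immune lists, at 14.5. In the neutrophil list, Mmp8, a collagenase, at 7.39 ± 0.73 and Slfn4 at 7.29 ± 0.45 (SD, n = 6 each) were the 2 of 18 members above the highest organ gene. The means of all T and NK cell, B and plasma cell and mast cell genes lay below it, which does not show that such cells were missing.

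Interferon and chemokine genes were intermediate. Of 24 interferon-stimulated genes 19 lay above the organ genes, at a median percentile of 74.3, led by Rtp4 at 9.20 ± 0.22 and the chemokine Cxcl10 at 8.97 ± 0.48 (SD, n = 6 each). Of 38 chemokine and cytokine genes the brightest were Ccl12, a chemokine for monocytes, at 10.44 ± 0.43, the alarmin Il33 at 9.92 ± 0.42 and Cxcl12 at 9.88 ± 0.10 (SD, n = 6 each). Il6, a cytokine of inflammation, was at 6.28 ± 0.41 (SD, n = 6), the 46.8 percentile. B2m, the light chain of MHC class I, was bright and steady at 11.76 ± 0.12 (SD, n = 6).

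Gland secretion genes were the dimmest list of all. Of 22 measured, 21 lay in the dimmest 25%, with a median percentile of 9.67. The seminal vesicle genes Svs2 and Svs4 were at 4.22 ± 0.17 and 4.17 ± 0.13, and Pbsn (probasin), a secretory protein of prostate epithelium, was at 2.95 ± 0.12 (SD, n = 6 each). A single tumour stood out in a few of them. Sbp, the spermine binding protein of the ventral prostate, was at 3.37 in WT1, 3.32 in WT2, 3.17 in WT3, 6.05 in WT4, 3.43 in WT5 and 3.22 in WT6. Spink1, a protease inhibitor of gland secretions, was at 5.82 in WT4 against 3.21 to 4.05 in the others, and 9530002B09Rik was at 6.39 against 4.49 to 4.94. The mean of the list was highest in WT4 under every scaling, while WT4 had the highest value in 5 of the 22 members (11.7% of all genes had theirs there) and only these 3 had an SD of 0.5 or more.

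Metabolic genes belonged to the bright end. Glycolysis genes had a median percentile of 87.4, with Ldha (lactate dehydrogenase) at 11.54 ± 0.17, and respiratory chain genes 84.8, with Atp5b, a subunit of ATP synthase, at 11.83 ± 0.16 (SD, n = 6 each). Genes of sterol and fatty acid synthesis were at 82.2 and hypoxia genes at 79.2. Adipocyte genes were at 44.1, with the defining genes Adipoq and Plin1 at 4.71 ± 0.30 and 6.16 ± 0.13 (SD, n = 6 each). Fabp4, a fatty acid carrier that macrophages and vessels also use, stood apart in that list at 9.27 ± 0.84 (SD, n = 6). Urothelial, skeletal muscle, nerve and mesothelial genes had median percentiles of 34.3 to 41.4, with 1 or 2 members, or 0 for the urothelial list, above the organ genes.

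Most genes differed little among the 6 tumours. The median SD was 0.16 and the 90th percentile of SDs 0.32 on the log2 scale. An SD of 0.5 or more was seen in 507 of 19937 genes (2.54%), and of 1 or more in 35 (0.176%), or 53 when WT1 was left out. The steadiest of the brightest 25% of genes was Slc25a4, the mitochondrial ADP/ATP carrier, with 11.48 to 11.53 in the 6 tumours and an SD of 0.02. Others with SDs of 0.02 to 0.03 were Nup62 of the nuclear pore, Arpc2 of the actin-branching complex and the small GTPase Rac1. In 13 of the 36 lists no member reached an SD of 0.5, among them cell cycle, ribosomal, respiratory chain, contractile and endothelial genes. With 2.54% of all genes reaching it, a count of 0 in lists this short is near that share and does not mark them as steady. Their median SDs were 0.19, 0.15, 0.22, 0.21 and 0.21 in that order, against 0.16 for all genes.

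**Figure D2:**
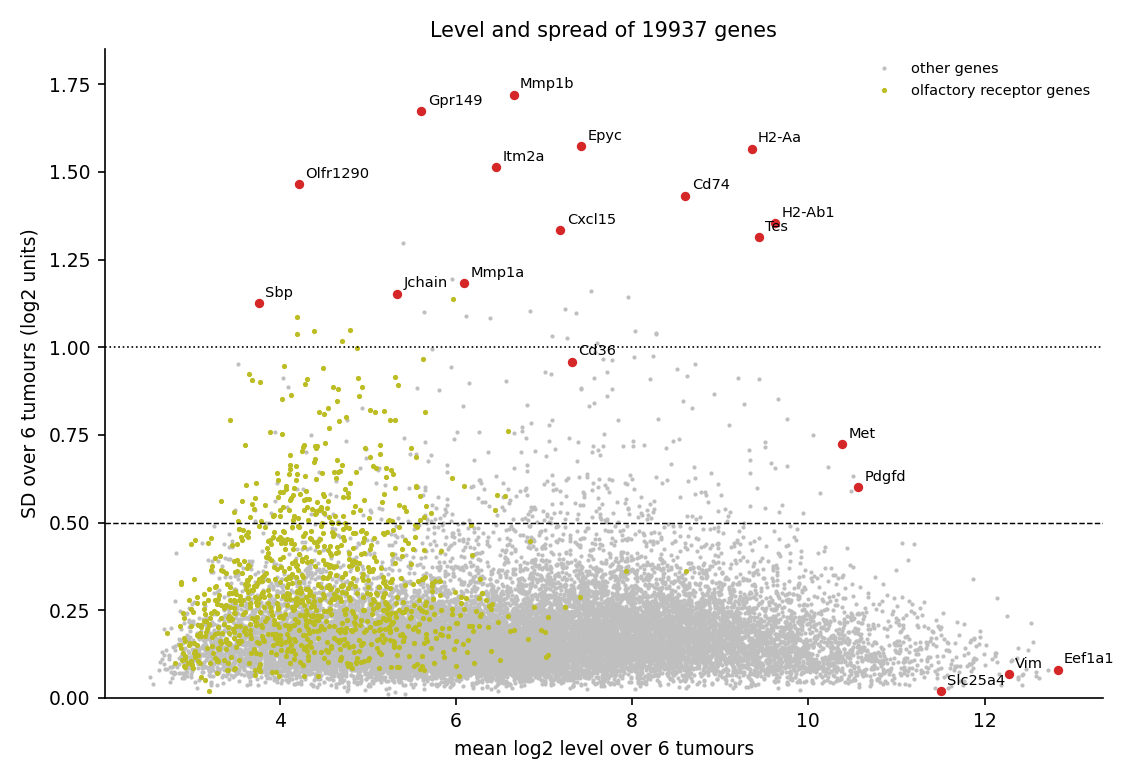
Mean log2 level (horizontal axis) and SD over 6 tumours in log2 units (vertical axis) of 19937 genes, with olfactory receptor genes in yellow and selected genes in red. The dashed and dotted lines mark SDs of 0.5 and 1; Mmp1b has the largest SD at 1.72, and Eef1a1 and Vim combine the brightest levels with SDs of 0.08 and 0.07.

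Part of this spread lay in dim genes that were highest in WT2 or WT5. Olfactory receptor genes, which serve smell and have a median percentile of 12.2 here, made up 169 of the 507 genes, and 167 of these were highest in WT2 or WT5. The mean level of the 1027 measured olfactory receptor genes was 4.89 in WT2 and 4.71 in WT5, against 4.25 to 4.42 in the other 4 tumours. Of genes outside the dimmest 25%, 329 of 14953 (2.2%) had an SD of 0.5 or more, of those inside it 178 of 4984 (3.57%), and of the brightest 10% 32 of 1994 (1.6%). Of these 178 dim genes, 140 were highest in WT2 and 23 in WT5, although WT5 has the narrowest array. With a common interquartile range the SD of Olfr1290 was 1.39, against 1.47 as deposited, and that of Olfr1134 was 1.00 against 1.08. The part of array width in this was not tested. Without WT2 and WT5 the count over all genes was 252, of which 191 also belonged to the 507.

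The 30 genes with the largest SD held 5 matrix metalloproteinases, 4 genes of MHC class II and 5 olfactory receptors. Olfactory receptors were 1027 of the 19937 genes, and the share of the other families over all genes was not counted. WT1 had the highest value in 11 of them, WT4 in 6, WT2 and WT5 in 5 each, WT6 in 3 and WT3 in 0. WT3 had the lowest value in 17 and WT2 in 7. Among all 19937 genes WT1 was highest in 1698, WT2 in 3334 and WT3 in 4341. WT4 was highest in 2325, WT5 in 4999 and WT6 in 3240, while WT3 was lowest in 4469 and WT2 in 3252. Without WT2 and WT5, 16 of the 30 stayed among the 30 most variable.

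**Figure D3:**
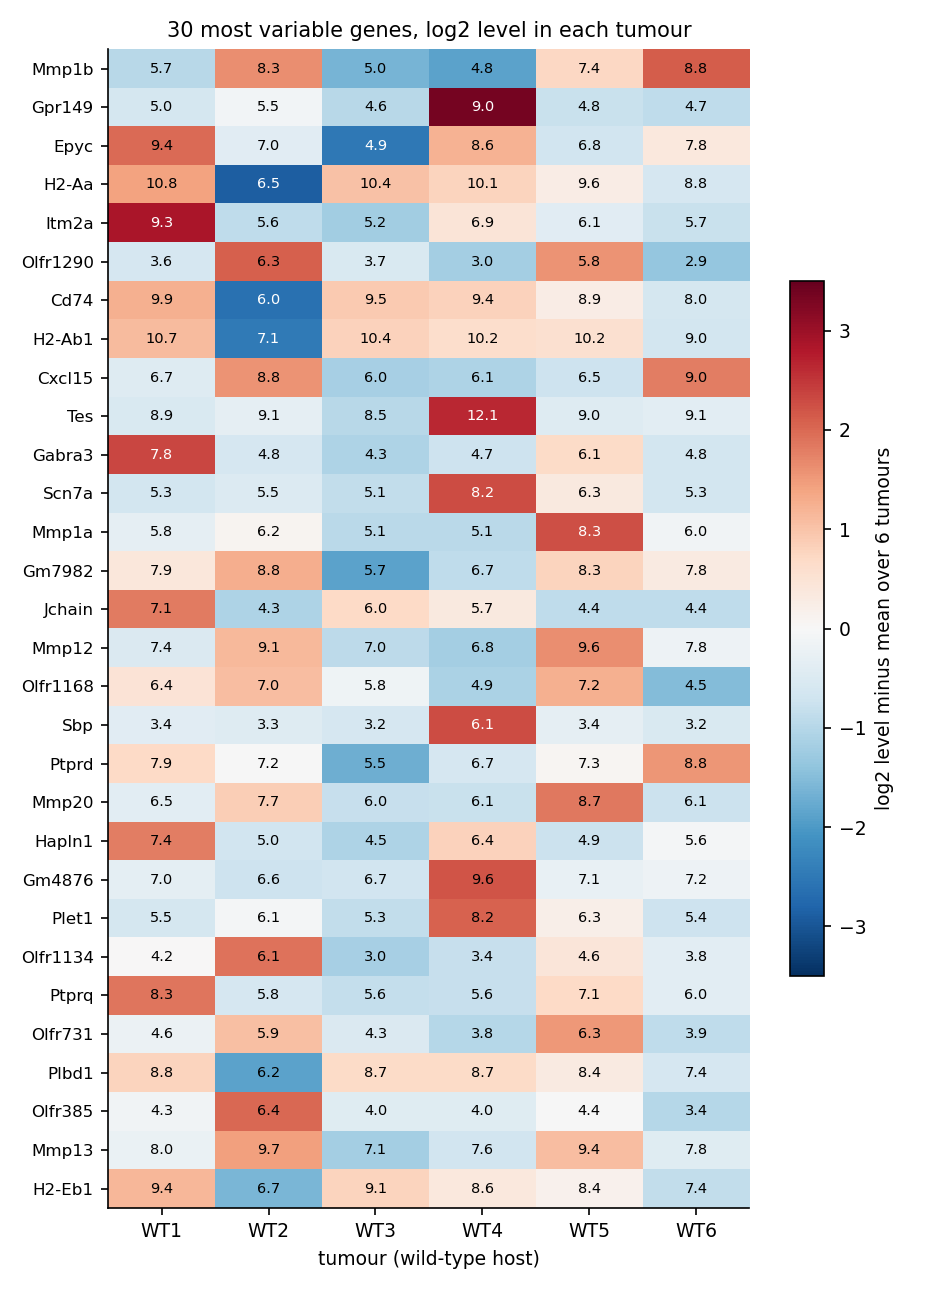
Log2 level of the 30 genes with the largest SD (rows, ordered by SD) in each of the 6 tumours (columns). Numbers give the level and colour gives its difference from the mean over 6 tumours; H2-Aa, Cd74, H2-Ab1 and H2-Eb1 are lowest in WT2, Gpr149, Tes and Gm4876 are highest in WT4, and Mmp1a and Mmp20 are highest in WT5.

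Of the 30 most variable genes 4 belong to MHC class II antigen presentation. MHC class II molecules are formed of an alpha and a beta chain and carry peptides to helper T cells, with Cd74 as the chain that guides their assembly. H2-Aa, an alpha chain, was at 10.76 in WT1, 6.49 in WT2, 10.38 in WT3, 10.13 in WT4, 9.61 in WT5 and 8.77 in WT6. WT2 was the lowest and WT6 the next, and WT2 lay 3.65 below the median of the other 5, or 12.5-fold. H2-Ab1, the beta chain that pairs with it, ran from 7.14 in WT2 to 10.73 in WT1, and Cd74 from 6.00 to 9.85 in the same tumours. H2-Eb1, another beta chain, had 6.69 in WT2 and 7.40 in WT6 against 8.43 to 9.43 in the other 4. All of these genes put WT2 lowest, WT6 second lowest and WT1 highest.

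The remainder of the dendritic and MHC class II list took part to a lesser degree. Of its 16 members 6 had an SD of 0.5 or more, where the share of all genes was 2.54%, and 9 were lowest in WT2, against 16.3% of all genes. H2-DMa, a chain of the peptide exchange factor, was at 6.11 in WT2 against 7.01 to 7.78. Plbd1, a lysosomal phospholipase-like gene that is no member of the list, had the same lowest tumour, with 6.16 in WT2, 7.45 in WT6 and 8.36 to 8.81 in the others. Itgax, the integrin of dendritic cells, differed less, from 5.66 to 6.44, and Ciita, the master activator of class II transcription, only from 5.54 in WT6 to 5.99 in WT1. The list mean was 7.53 in WT1 and 6.22 in WT2, and these were the extremes under every scaling.

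Promoters of class II genes carry a conserved Y box that is bound by the factor NF-Y and holds an inverted CCAAT. H2-Aa, H2-Eb1, H2-DMa and H2-Ab1 were looked for because they share a low level in WT2. The 150 bases before the start are printed where an entry holds the box. The sequences are those of RefSeq on GRCm38.p6, with the searched motif CTGATTGG, or its complement, in capitals. That of H2-Aa is at chr17:34287824-34287973 on the minus strand with the box 51 bases before the start, and that of H2-Eb1 at chr17:34305717-34305866 on the plus strand with the box 62 bases before it.
H2-Aa: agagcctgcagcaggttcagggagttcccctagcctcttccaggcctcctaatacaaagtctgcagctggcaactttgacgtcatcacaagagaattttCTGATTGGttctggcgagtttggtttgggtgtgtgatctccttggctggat
H2-Eb1: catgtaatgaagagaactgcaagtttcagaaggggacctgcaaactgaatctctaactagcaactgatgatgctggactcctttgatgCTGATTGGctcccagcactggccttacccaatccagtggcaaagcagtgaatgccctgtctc
The same letters, on either strand, occur in 3.16% of 32851 promoter entries of this length, and in 2 of the 4 entries of the 3 genes searched here, in neither entry of H2-DMa. H2-Ab1 had no promoter entry, and Cd74 was not among the genes looked for. H2-DMa was low in WT2 without the box, and whether the box bears on the level in WT2 was not tested.

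Interferon-induced genes had WT2 as their lowest tumour too. The list mean was 7.27 in WT2 and 7.54 in WT6 against 7.77 to 7.96 in the other 4, and WT2 was lowest and WT1 highest under every scaling. Cxcl9, a chemokine induced by interferon gamma, was at 9.35 in WT1, 6.85 in WT2, 9.34 in WT3, 8.72 in WT4, 8.75 in WT5 and 8.70 in WT6. Only WT2 stood apart in it. Iigp1, an immunity-related GTPase, was at 6.59 in WT2 against 7.74 to 8.25. The guanylate-binding protein genes Gbp4 and Gbp7 were also lowest in WT2, with Gbp4 1.43 and Gbp7 1.28 below the median of the other 5 tumours. Ifng itself, the gene of interferon gamma, was at 5.37 to 5.57 in all 6. Nkg7, a granule protein of cytotoxic cells, was at 5.06 in WT2 against 5.41 to 6.58, and the T and NK cell list mean was lowest in WT2 at 5.38. WT2 has one of the 2 narrowest arrays, and its part in these results was not tested beyond the rescaling, under which these lists kept WT2 as lowest.

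WT2, lowest in the mean of the class II list, was highest in that of the hypoxia list. The hypoxia list, of genes induced when oxygen is low, had a mean of 8.74 in WT2 and 8.47 in WT5 against 7.90 to 8.19 in the others, with WT2 highest and WT3 lowest under every scaling. The order of the other tumours in one list was not the reverse of that in the other. Their class II and hypoxia means were 7.53 and 8.19 in WT1, 7.29 and 7.90 in WT3, and 7.24 and 8.09 in WT4. They were 7.19 and 8.47 in WT5, and 6.77 and 8.05 in WT6. Bnip3, a mitochondrial protein of mitophagy, was at 9.14 in WT1, 10.33 in WT2, 7.77 in WT3, 8.97 in WT4, 10.05 in WT5 and 8.97 in WT6. WT2 and WT5 were its highest tumours and WT3 its lowest. Car9, a carbonic anhydrase of hypoxic cells, had the same 3 extremes at 8.02, 7.37 and 5.81, and so had Ero1a, an oxidase of the endoplasmic reticulum, at 10.61, 10.14 and 8.77. Of 20 hypoxia genes 6 had an SD of 0.5 or more, against 2.54% of all genes. Without WT2 and WT5 it was 2 of the 20, against 252 of all 19937 genes. WT2 was the highest tumour in 14 of the 20 hypoxia genes, against 16.7% of all genes. The glycolysis list was highest in WT2 at 9.43 against 8.96 to 9.12, with the glucose transporter Slc2a1, a member of both lists, at 9.14 in WT2 against 8.07 to 8.85. The highest tumours of these lists, WT2 and WT5, are those with the narrowest arrays. With a common interquartile range the extremes of the hypoxia list lay farther apart, by 1.09 in place of 0.84.

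Arg1, an enzyme of arginine breakdown in macrophages, was also highest in WT2. It was at 6.41 in WT1, 8.76 in WT2, 6.28 in WT3, 6.50 in WT4, 7.28 in WT5 and 6.83 in WT6. Slc7a11, the cystine transporter, was at 8.93 in WT2 against 6.19 to 7.67, and the metallothionein Mt2 at 11.06 against 8.95 to 10.18 (both were chosen after their values were seen). The Y-linked genes Kdm5d, Eif2s3y and Uty were lowest in WT2, at 6.04, 5.18 and 5.13, against 6.67 to 7.16, 6.10 to 6.51 and 5.63 to 6.16. The list of Y-linked genes with Xist, an RNA of the inactive X chromosome, had its lowest mean in WT2 under every scaling, and Xist was at 4.03 to 4.94. Of the 7 measured members of that list, these 3 were lowest in WT2, where 16.3% of all genes were, and 1 other was highest there.

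Sterol synthesis genes set WT3 against WT5. Their list mean was 8.50 in WT3 and 8.43 in WT6, and 7.75 in WT5, and WT3 and WT5 stayed the extremes under every scaling, with a gap of 0.75 as deposited and 0.50 with a common interquartile range. Idi1, an enzyme of isoprenoid synthesis, was at 7.82 in WT1, 7.29 in WT2, 8.51 in WT3, 7.64 in WT4, 6.93 in WT5 and 8.24 in WT6. Msmo1, a sterol oxidase, ran from 7.89 in WT5 to 9.35 in WT3. WT5 was lowest in 19 of 22 members, against 23.8% of all genes. Of the 22, 2 had an SD of 0.5 or more, against 2.54% of all genes, and 0 without WT2 and WT5, against 252 of all 19937 genes. The width of the array moves with this order, since WT3 has the widest and WT5 the narrowest, and only the rescaled values above bear on its part.

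**Figure D4:**
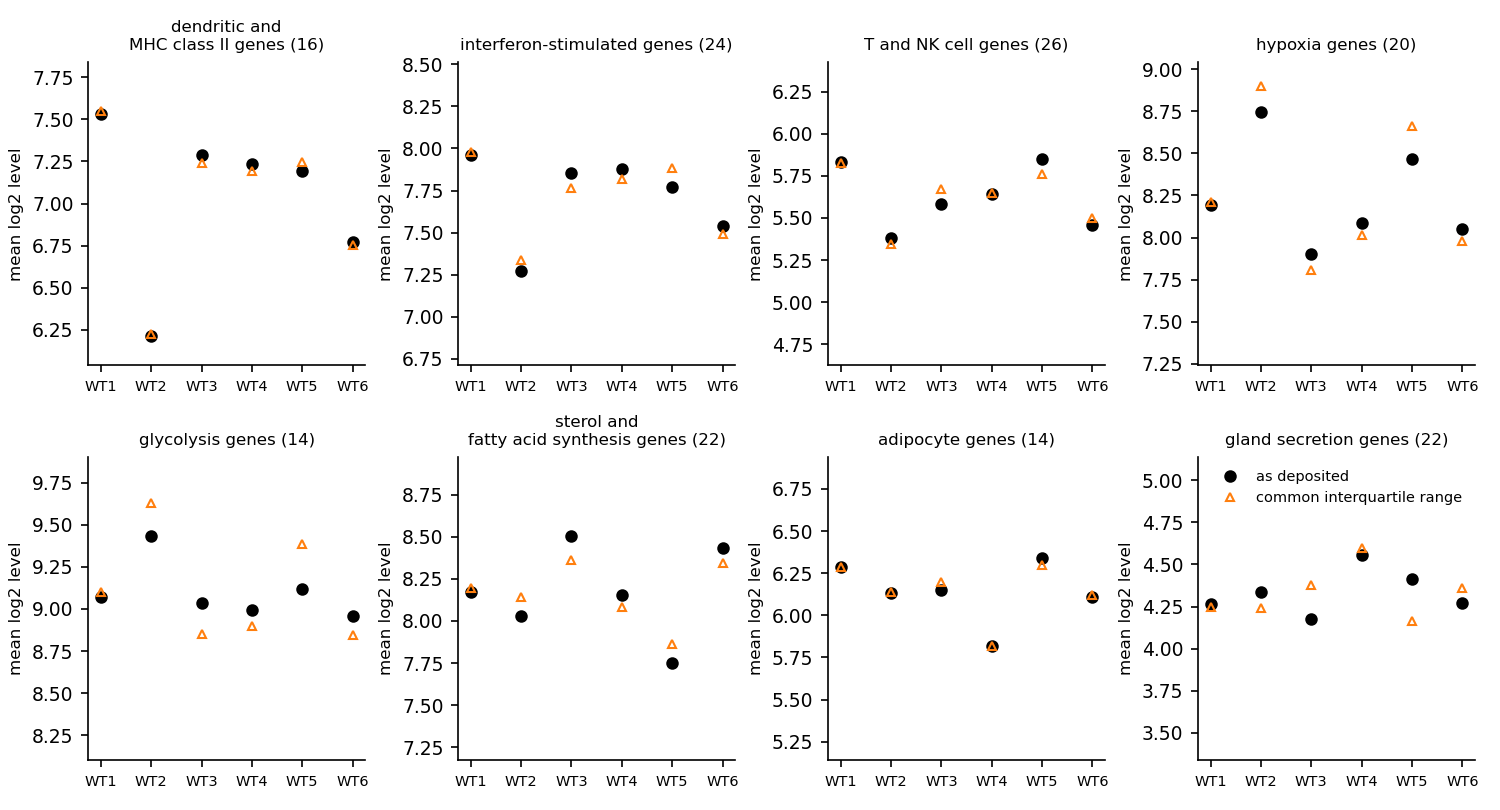
Mean log2 level of 8 lists in each of the 6 tumours (horizontal axis), as deposited (black circles) and with all arrays on a common interquartile range (orange triangles), with the number of genes in brackets; each panel spans the same 1.8 log2 units. WT2 is lowest for MHC class II and interferon genes and highest for hypoxia and glycolysis genes on both scales, and WT4 is lowest for adipocyte and highest for gland secretion genes.

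WT4 had the lowest values of Cd36 and Fabp4, both carriers of fatty acids. Cd36, a fatty acid transporter, was at 7.38 in WT1, 7.53 in WT2, 8.13 in WT3, 5.49 in WT4, 7.32 in WT5 and 8.05 in WT6. Fabp4 was at 7.68 in WT4 against 9.09 to 9.96. The mean of the adipocyte list was lowest in WT4 under every scaling, at 5.82 against 6.11 to 6.34, but WT4 was lowest in only 4 of its 14 members (12.1% of all genes were) and highest in 2. Plin1, a coat protein of fat droplets, had its highest value of 6.29 there. Gpr149, an orphan receptor, was at 8.96 in WT4 against 4.63 to 5.50, and Scn7a, a sodium channel gene, at 8.23 against 5.09 to 6.29.

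WT1 had the highest value of several of the most variable genes. Jchain, which joins secreted immunoglobulins, was at 7.15 in WT1, 4.26 in WT2, 6.03 in WT3, 5.68 in WT4, 4.44 in WT5 and 4.44 in WT6. It had 3 low tumours, WT2, WT5 and WT6. Itm2a, a membrane protein of cartilage and T cells, was at 9.32 in WT1 and 6.91 in WT4 against 5.24 to 6.05, and Hapln1, a link protein of the matrix, at 7.43 in WT1 against 4.55 to 6.44. Cxcl15, a chemokine of epithelia, had another pattern, with 8.76 in WT2 and 8.98 in WT6 against 6.04 to 6.74. Epyc, a small proteoglycan of cartilage, spanned 4.92 in WT3 to 9.40 in WT1. Its neighbours Kera, Lum and Dcn, proteoglycans of the same family that lie beside it on chromosome 10, were each highest in WT4, at 8.30, 9.88 and 12.29.

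Variable genes were therefore also read in chromosome order. For each tumour the difference of a gene from the median of the other 5 tumours was taken, and its running median over 7 neighbouring genes outside the dimmest 25% was scanned for values of 0.5 or more in size. This scan was designed after the values had been seen. Of 88878 windows, 224 (0.252%) passed, which formed 49 runs (30 when WT3 was left out) and 40 stretches, counted per tumour so that regions can recur or overlap, 17 higher and 23 lower in 1 tumour. WT2 was the higher tumour in 3 and the lower in 13, WT3 in 8 and 2, WT5 in 4 and 5, WT4 in 2 and 1, WT6 in 0 and 2, WT1 in none, and 8 of the 40 held olfactory receptor genes. Members of a gene family often lie side by side, and DNA copy number was not measured.

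The most marked stretch was on chromosome 6 in WT4. From Foxp2 to Capza2, all 9 genes were 0.51 to 3.08 higher in WT4 than the median of the other 5, with a median of 1.71 (1.45 with a common interquartile range), and WT4 was the highest of 6 in 8 of them. Met, the growth factor receptor, was at 10.06 in WT1, 10.02 in WT2, 10.21 in WT3, 11.82 in WT4, 9.85 in WT5 and 10.35 in WT6. Tes, a focal adhesion protein, was at 12.08 in WT4 against 8.46 to 9.12, which is 8.47-fold over the median of the others. Cav2 and Cav1, the coat proteins of caveolae, were at 11.29 against 8.98 to 9.18 and at 12.71 against 11.96 to 12.11. Capza2, a capping protein of actin, was at 11.69 against 10.18 to 10.35. Apart from the related Cav1 and Cav2, these neighbours belong to different gene families. The flanking genes did not share the difference. On one side the dim gene Ppp1r3a had a difference of -0.37 and 2610001J05Rik beyond it was at 9.09 in WT4 against 9.02 to 9.30. On the other side St7 was at 7.55 against 7.37 to 7.71.

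Another stretch, of genes of different families, was higher in WT3 on chromosome 1. Between Mrpl15 and Pcmtd1, 6 of 9 genes outside the dimmest 25% were 0.5 or more above the median of the other tumours, and WT3 was the highest of 6 in 6. Mrpl15, of the mitochondrial ribosome, was at 9.20 in WT3 against 7.06 to 7.33, Atp6v1h, of the proton pump, at 9.44 against 7.35 to 7.74 and Rb1cc1, an autophagy initiation protein, at 10.18 against 8.51 to 8.79. The other 3 were Lypla1, Tcea1 and Pcmtd1, at differences of 1.90, 1.08 and 0.90. In the same stretch Npbwr1 and St18 were not higher, at differences of -0.14 and 0.02. WT3 also had a long stretch on chromosome 15 from Zfp622 to Nudcd1, in which 35 of 58 genes passed 0.5. WT3 was highest in 45 of the 58 (21.8% of all genes had their highest value there). The stretch was picked for high values in WT3, so both counts follow in part from that choice and are no separate result. There the median difference was 0.56, and 0.30 with a common interquartile range, which is below the 0.5 by which the stretch was found. Its largest members were Angpt1, a ligand of vessel growth, at 10.21 in WT3 against 7.43 to 9.34, and Rida at 9.54 against 7.91 to 8.56.

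**Figure D5:**
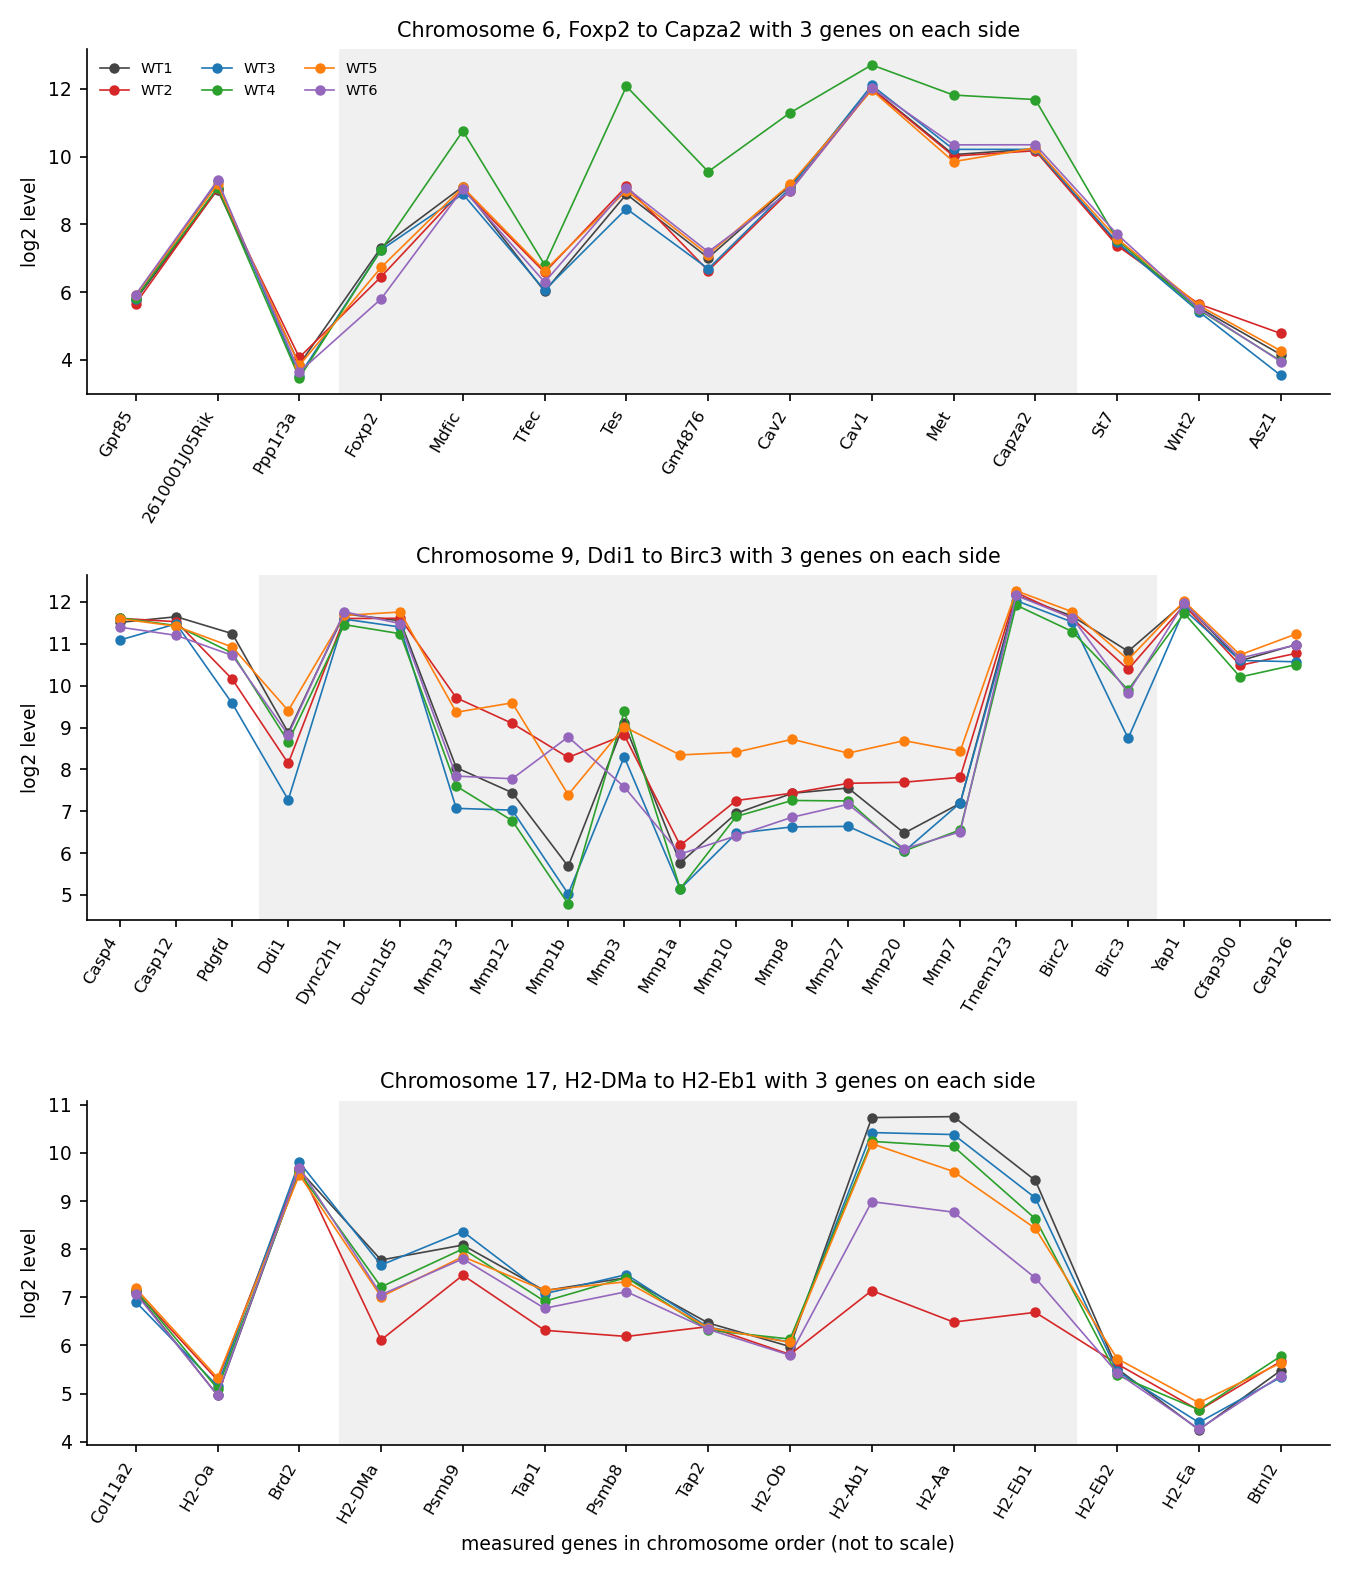
Log2 level of neighbouring genes in chromosome order (horizontal axis, not to scale) in the 6 tumours, shown by coloured points joined by lines, for 3 stretches (grey) with 3 flanking genes on each side. WT4 lies above the rest from Mdfic to Capza2, WT5 lies above the rest from Mmp1a to Mmp7, and WT2 lies below the rest at H2-Ab1, H2-Aa and H2-Eb1.

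Chromosome 9 carried the cluster of matrix metalloproteinases, secreted enzymes that cut collagen and other matrix proteins. From Ddi1 to Birc3, 11 of 16 genes were 0.5 or more higher in WT5 than the median of the others, with a median of 1.19. Mmp1a, a collagenase, was at 5.77 in WT1, 6.18 in WT2, 5.15 in WT3, 5.15 in WT4, 8.34 in WT5 and 5.98 in WT6. Mmp20, an enzyme of tooth enamel, was at 8.69 in WT5 and 7.69 in WT2 against 6.04 to 6.48. Mmp12, the elastase of macrophages, was at 9.59 in WT5 and 9.10 in WT2 against 6.77 to 7.78, and Mmp13, a collagenase, at 9.37 and 9.71 against 7.07 to 8.04. WT5 and WT2 thus shared high values of these 3, whereas in Mmp8, a neutrophil collagenase, WT5 reached 8.72 and WT2 had 7.43, the same as WT1.

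Mmp1b, the most variable gene of all, had an order of its own. It was at 5.68 in WT1, 8.28 in WT2, 5.02 in WT3, 4.79 in WT4, 7.40 in WT5 and 8.77 in WT6, so that WT6 was highest and WT1, WT3 and WT4 were low. Mmp3, stromelysin, was at 7.58 in WT6, its lowest value, and 8.30 to 9.39 in the other tumours. Mmp1a and Mmp1b are close copies, as are Mmp3 and Mmp10, and how far their probe sets cross-hybridise was not tested. In WT3 the region was low, with a median difference of -0.80 over 15 genes from Casp1 to Mmp27. Casp1, the caspase of inflammasomes, was at 8.27 in WT3 against 9.16 to 10.54, and Birc3, an inhibitor of apoptosis, at 8.74 against 9.83 to 10.82.

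The promoters of the metalloproteinases are shown for the 5 genes of the cluster that differed most in WT5 among those that hold the site bound by AP-1, the dimer of Fos and Jun proteins. The motif TGAGTCA, or its complement, is in capitals in the 150 bases before the start, from RefSeq on the same build. Mmp12 is at chr9:7347224-7347373, Mmp13 at chr9:7272364-7272513, Mmp1a at chr9:7463991-7464140 and Mmp10 at chr9:7502192-7502341, all on the plus strand, with the site 44, 35, 73 and 63 bases before the start. Mmp1b is at chr9:7388027-7388176 on the minus strand, with the site 93 bases before it.
Mmp12: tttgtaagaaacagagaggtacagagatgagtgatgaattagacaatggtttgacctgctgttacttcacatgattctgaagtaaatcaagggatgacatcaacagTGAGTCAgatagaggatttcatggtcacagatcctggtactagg
Mmp13: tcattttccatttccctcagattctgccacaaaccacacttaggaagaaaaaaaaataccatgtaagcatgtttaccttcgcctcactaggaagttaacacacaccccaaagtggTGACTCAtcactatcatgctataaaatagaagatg
Mmp1a: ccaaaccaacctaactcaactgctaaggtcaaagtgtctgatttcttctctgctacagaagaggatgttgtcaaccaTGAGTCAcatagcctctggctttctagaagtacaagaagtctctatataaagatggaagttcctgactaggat
Mmp10: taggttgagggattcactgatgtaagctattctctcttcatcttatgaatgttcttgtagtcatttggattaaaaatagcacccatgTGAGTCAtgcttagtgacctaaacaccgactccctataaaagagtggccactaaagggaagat
Mmp1b: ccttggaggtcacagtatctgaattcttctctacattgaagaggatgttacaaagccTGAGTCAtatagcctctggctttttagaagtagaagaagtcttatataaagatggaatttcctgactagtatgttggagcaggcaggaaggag
These letters, on either strand, occur in 2.84% of 32851 promoter entries of this length and in 7 of the 12 entries of the 10 metalloproteinase genes of the cluster. Mmp12 and Mmp7 have another entry each without it, and for Mmp12 the entry with a match is printed. Mmp8, Mmp27 and Mmp20 have none in this window, although Mmp20 and Mmp8 were high in WT5 as well, at 8.69 and 8.72. Of the genes that encode AP-1 proteins, Fos was at 6.06 ± 0.25, Jun at 7.78 ± 0.22 and Fosl1 at 8.12 ± 0.21 (SD, n = 6 each).

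In the same region of chromosome 9, genes on both sides of the metalloproteinases were bright in their mean over the 6 tumours. When the percentile of the mean level was taken as a running median over 7 neighbouring genes, the 10 highest of 19790 windows in the genome all lay in this region. These windows overlap, and single tumours were not scanned. The highest, from Casp1 to Dcun1d5, had a median percentile of 99.5, while the median over all windows was 52.1 and the first window on another chromosome had 96.3. Around the metalloproteinases, Yap1, the growth regulator of the Hippo pathway, was at 11.91 ± 0.11, Birc2 at 11.58 ± 0.16 and Tmem123, a surface glycoprotein, at 12.13 ± 0.13 (SD, n = 6 each). Casp4 and Casp12, inflammatory caspases, were at 11.47 ± 0.20 and 11.45 ± 0.15, Dync2h1, the motor of cilia, at 11.64 ± 0.11 and Dcun1d5, a factor of neddylation, at 11.51 ± 0.18 (SD, n = 6 each). The metalloproteinases between them had larger SDs, from 0.59 in Mmp27 to 1.72 in Mmp1b. Several of them were not bright, with Mmp1a at the 43.0 percentile, Mmp1b at 54.1 and Mmp20 at 57.8, while Mmp13 was at 81.1 and Mmp3 at 86.3. The scan for bright windows was likewise designed after values had been seen.

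Of the 13 stretches lower in WT2, 4 that hold class II, guanylate-binding protein or membrane-spanning 4A genes are given here, while others, such as that of the matrix genes Optc, Prelp and Fmod with Btg2 at a median of -0.83, hold none of these. On chromosome 17, 7 of 9 genes from H2-DMa to H2-Eb1 were lower by 0.5 or more, among them Psmb8 and Psmb9, subunits of the immunoproteasome, and Tap1, a peptide transporter, at differences of -1.22, -0.55 and -0.76. Tap2 and H2-Ob inside the stretch and Brd2 beside it were not, at 0.02, -0.25 and 0.05. On chromosome 5 the 4 genes from Abcg3 to Gbp4, and on chromosome 3 the genes Gbp5, Gbp7, Gbp3 and Kyat3, were all lower in WT2, with medians of -1.06 each, while the dim gene Gbp2b among the latter was not, at -0.05. A stretch on chromosome 19 held AW112010, an interferon-induced transcript, at a difference of -2.01, and Ms4a4c, of a family of membrane-spanning proteins, at -1.56.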

How the data were processed

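Total RNA of each tumour was amplified and hybridised to 1 array per tumour, per the labels' protocols. The deposited values are log2 intensities that the authors made with RMA, per the submitters' processing notes; RMA as a method subtracts background, aligns quantiles and summarises probes, yet the gene-level ranges of these arrays differ. Files of single arrays were not used. The genome build is not given in the sources used here, and detection calls were not used, so low levels cannot be set against background.

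The 6 columns of wild-type hosts were taken from a table of 34760 identifiers, of which 28192 were at or above 10344614, the lowest identifier used. Of these, 21640 had 1 gene symbol in the platform annotation, 1321 had several and 5231 had none. They gave 19937 genes, 954 of which had several probe sets, and the one with the highest mean was used. The number of columns with no sample was 0.

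With 1 group there is no comparison of conditions and no p-value; spreads are SDs over 6 tumours of separate mice, and the number of arrays limits their precision. Levels were placed by percentile among all genes. The genes named were the 30 with the largest SD, the 20 with the highest mean, the 15 with the smallest SD in the brightest 25%, the 20 with the largest SD without the tumours whose arrays stand apart and, per list, its defining genes, the 3 highest and the 3 most variable. Genes of the chromosome stretches and of the bright region, and Cd68, Cdh1, Ciita, Cnn1, Des, Fosl1, Ifng, Jun, Krt18, Mt2, Neurod6, Slc7a11, Snai2, Sqstm1 and Vcan, were chosen after their values were seen. The lists, like the choice of these tumours, were made with earlier results of these data known. Of 731 listed genes 656 were measured. Gene order came from a RefSeq table of assembly GRCm38.p6, in which 14938 genes outside the dimmest 25% had a place.

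Alternatives were other scalings of the arrays, a filter on dim genes, the mean of a gene's probe sets, the median absolute deviation and leaving out tumours; the closing section gives their effect. Scripts were tested on simulated data and ran in python 3.11.15 with pandas 2.3.3, numpy 2.4.6 and matplotlib 3.10.9.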

Additional observations from a re-analysis of the deposited data

Results flagged for a closer look

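A tumour was singled out where its gap to the nearest of the other 5, divided by the range of all 6, exceeded Dixon's critical value for 6 samples. Chance passes about 1 in 20 such groups, and 23 of the 322 groups examined passed, 11 through WT4, 9 through WT2, 2 through WT5, 1 through WT6 and 0 through WT1 or WT3. Among all 19937 genes 1230 passed, a like share, but with another split: 433 through WT5, 251 through WT2, 232 through WT3, 149 through WT6, 100 through WT4 and 65 through WT1. Many of the genes examined were chosen for a large spread.

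In WT4, far above the other 5 tumours were Gpr149 at 8.96, Tes at 12.08, Gm4876 at 9.56, Cav2 at 11.29 and Met at 11.82. The gland genes Sbp at 6.05, Spink1 at 5.82 and 9530002B09Rik at 6.39 stood above the rest in the same tumour. So did Plet1, a surface protein of epithelial progenitors, at 8.17 against 5.25 to 6.33 and Cpa3, a protease of mast cells, at 4.99 against 4.29 to 4.55. Cd36 at 5.49 was far below the other 5.

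In WT2, far below the others were Cxcl9 at 6.85, Iigp1 at 6.59, Psmb8 at 6.19 and Eif2s3y at 5.18. Rsrc2 was low at 9.23 against 9.30 to 9.32, in a gene that varied very little. Above the others in WT2, by a gap that is large only against the range of the 6 values in the case of Sox10, were the mean of the glycolysis list at 9.43, Chil3, a chitinase-like protein of macrophages, at 5.89 against 4.31 to 4.90, Sox10, a factor of glial cells, at 6.91 against 6.58 to 6.69, and the olfactory receptor Olfr385 at 6.41 against 3.38 to 4.36.

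In WT5, Mmp1a at 8.34 and Ube2d3, a ubiquitin-conjugating enzyme, at 12.52 against 12.20 to 12.31 stood above the rest. In WT6, Tnni2, a troponin of fast skeletal muscle, was at 7.97 against 7.08 to 7.37.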

How the results depend on the processing

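No paired analysis was possible because there is 1 group and no test. The count of genes with an SD of 0.5 or more was 507, and became 329 over genes at or above the lower quartile, 314 with the median absolute deviation, 252 without WT2 and WT5, and 339 to 624 with 1 tumour left out. The count with an SD of 1 or more was 35, and became 18 with the median absolute deviation and 33 to 53 with 1 tumour left out. The number of runs of neighbouring genes was 49, and became 8 with windows of 15 genes and 30 to 60 with 1 tumour left out. Under the 3 other scalings each of these counts stayed within 1.5 times. A reversal was looked for only in the medians of stretches without olfactory receptor genes, and none was found. Of the SDs of named genes under all alternatives 3013 stayed within the range counted as unchanged and 389 moved, of list percentiles 387 and 45, of list counts 362 and 70, and of the medians of stretches 221 and 35, of which 12 with a common interquartile range and 11 with quantile normalization. The extreme tumours of a list could change, as for cell cycle genes from WT3 and WT5 to WT2 and WT4 with a common interquartile range alone. The cause of these moves was not tested. Leaving out WT2 and WT5 together, the windows of neighbours and the rescaled list means were chosen after the data were seen. The deposited values are already normalized, so differences in total RNA are not measured, and the unequal array widths limit what the order of tumours in bright or dim lists shows.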
